A study of Mus musculus with 23 samples.

Results

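Interferon-stimulated genes are described here as 34 named genes, taken by symbol from the 32285 genes of each of 11 single-cell gene expression matrices of mouse bone marrow. All 34 were found in every matrix. The cells were c-Kit+ Sca1+ Lineage- (KSL) marrow cells, the fraction that holds blood stem cells and multipotent progenitors, and the study compared loss of Jarid2 with loss of Ezh2, a cofactor and the catalytic subunit of the histone methyltransferase complex PRC2. The baseline experiment had 6 libraries, a male (replicate 1) and a female (replicate 2) per genotype (Control, Ezh2 KO, Jarid2 KO), all from steady-state mice aged 2 months. The transplant experiment had 5 libraries of donor CD45.2 KSL cells from lethally irradiated primary recipients, 18 weeks after they received 500000 donor and 500000 CD45.1 competitor marrow cells: 1 Control, 2 Ezh2 KO and 2 Jarid2 KO. The floxed genes were deleted with Mx1-Cre, and the labels give Mx1-Cre for the Control samples as well and list no treatment. The Mx1 promoter that drives this Cre is itself switched on by interferon in many cell types, so recombination is not limited to KSL cells. No agent used to induce it is named in the sources used here.

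Interferons are secreted proteins that bind receptors at the cell surface. Type I and type III interferons act through the JAK kinases on a complex that holds STAT2 and IRF9 and binds a DNA element called the ISRE, while interferon gamma acts mainly at the GAS element. The induced genes sense foreign nucleic acids, block viral translation and replication, or feed back on the pathway. In marrow, stem cells are known to carry a basal level of many of these genes and to leave quiescence when exposed to interferon.

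The promoter sequences show what the members have in common in DNA, independently of their levels. In the RefSeq promoter table of GRCm38.p6 (mm10), which gives 250 bases before to 50 bases after each transcription start, 26 of the 34 members were matched, with 30 promoters. Iigp1, Ifi27l2a, Usp18, Rtp4, Oas2, Zbp1, Dhx58 and Parp14 were not matched. The ISRE core was searched as GAAANNGAAA on either strand (TTTCNNTTTC when read on the other), and overlapping matches were counted. It was found in 18 of the 30 member promoters (60%), belonging to 16 members, against 3.44% of all 32851 promoters in the table. The GAS core TTCNNNGAA, a palindrome, was found in 7 of the 30 (23.3%), against 8.30% of all promoters. A match of letters is not a bound site, and the list was drawn up from genes known to answer to interferon. The 160 bases before the start are printed for 5 members whose levels are described below and for Oas1a, whose matches lie close to the start, 5′ to 3′ on the gene's strand, with ISRE core matches in capitals. The windows are chr4:156200819-156200978 for Isg15 and chr5:120907526-120907685 for Oas1a, both on the minus strand, and on the plus strand chr19:34640729-34640888 for Ifit1, chr19:34583369-34583528 for Ifit3, chr3:142620503-142620662 for Gbp2 and chr11:58199396-58199555 for Igtp.
Isg15: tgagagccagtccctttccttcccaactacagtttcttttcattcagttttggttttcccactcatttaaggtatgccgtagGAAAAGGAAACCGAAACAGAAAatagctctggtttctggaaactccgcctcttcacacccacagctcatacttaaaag
Ifit1: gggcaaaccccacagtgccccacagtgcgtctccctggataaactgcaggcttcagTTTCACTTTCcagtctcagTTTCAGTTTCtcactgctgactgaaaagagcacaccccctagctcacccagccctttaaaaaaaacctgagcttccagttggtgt
Ifit3: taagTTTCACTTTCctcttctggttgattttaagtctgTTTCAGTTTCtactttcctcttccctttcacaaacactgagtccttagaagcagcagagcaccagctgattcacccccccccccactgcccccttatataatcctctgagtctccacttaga
Gbp2: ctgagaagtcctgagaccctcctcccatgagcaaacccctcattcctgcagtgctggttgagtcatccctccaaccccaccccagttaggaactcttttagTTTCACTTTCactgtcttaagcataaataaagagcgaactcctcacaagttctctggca
Igtp: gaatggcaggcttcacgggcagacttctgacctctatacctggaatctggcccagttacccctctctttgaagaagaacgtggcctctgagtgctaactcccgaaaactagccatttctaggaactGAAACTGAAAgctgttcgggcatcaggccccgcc
Oas1a: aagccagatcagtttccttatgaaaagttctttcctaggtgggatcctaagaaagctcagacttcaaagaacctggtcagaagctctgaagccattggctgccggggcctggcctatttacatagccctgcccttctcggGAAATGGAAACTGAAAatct
Isg15 held 3 overlapping matches, Ifit1 and Ifit3 held 2 each that are set apart, Gbp2 and Igtp held 1 each, and Oas1a held 2 that overlap close to the start. The matched member promoters with no ISRE core in the 300-base window were those of Irf7, Irf9, Ifit2, Oasl2, Ifi47, Cmpk2, Xaf1, Ifi44, Ifi35 and Lgals3bp. Several members are neighbours. The 4 Ifit members lie on chromosome 19 between 34550550 and 34662981, where the annotated span of Ifit1bl1 contains Ifit1, and Oas1a, Oas2 and Oas3 lie on chromosome 5 between 120730333 and 120907544. Reads of such similar or overlapping genes can be assigned to the wrong copy, so the split among Ifit1, Ifit1bl1 and Ifit3 and among the Oas genes is uncertain.

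After filtering, libraries held 6723 to 9208 cells and 83921210 to 126527222 UMIs (baseline), or 4354 to 6149 cells and 67629053 to 111514122 UMIs (transplant). Barcodes over the mitochondrial limit made up 2.82% to 5.82% of baseline libraries and 25.7% to 43.4% of transplant libraries, so member levels are tested between the experiments only through genotype differences. Within the transplant that share also moved with genotype, at 43.4% in Control, 36.6% and 37.4% in Jarid2 KO and 25.7% and 27.4% in Ezh2 KO. Cells with Xist and no Y-linked UMI were 59.4% of the transplant Control library, 48.3% and 49.9% of the Jarid2 KO libraries, and 0.0163% and 0.0511% of the Ezh2 KO libraries, so in the transplant experiment sex mix and genotype moved together. No 2 libraries shared more than 0.434% of their barcodes. Ezh2 transcripts fell by 2.19 (log2, SE 0.13, edgeR adjusted p = 0.00083) in transplant Ezh2 KO, and the change in baseline Ezh2 KO was -0.33 (SE 0.06, adjusted p = 0.060). Jarid2 transcripts were not lower in any library labelled Jarid2 KO, with 215 and 204.7 CPM against 159 and 150 CPM in baseline Control and 57.3 and 57.1 CPM against 38.5 CPM in the transplant. Against Ezh2 KO they were called higher, by 0.58 (adjusted p = 0.015) at baseline and 0.42 (adjusted p = 0.033) in the transplant. The 3′ kit counts the end of a transcript and the deleted exons are not named, so these values do not check the deletion, and the Jarid2 KO groups rest on the labels alone in every comparison below.

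Summed over the kept cells of a library, the members were expressed at low to moderate levels. CPM are UMIs of a gene per 1000000 UMIs of the library, not scaled to gene length, and in such sums fewer expressing cells and less RNA per cell cannot be told apart. At baseline the 34 members together gave 884 and 895 CPM in the Control libraries. The Ezh2 KO libraries gave 952 and 1026 CPM and the Jarid2 KO libraries 848 and 848 CPM. In the transplant the Control library gave 717 CPM, those of Ezh2 KO 735 and 756 CPM, and those of Jarid2 KO 642 and 710 CPM. In both experiments whole Ezh2 KO libraries lay above Control and whole Jarid2 KO libraries below it. That order did not hold within every class of either experiment, as given with the classes below. Between 18 and 27 of the 34 members reached 10 CPM in a group's mean, and the lowest value of a member in any library rested on 19 UMIs. The interferon genes themselves were close to absent: 13 of 21 ligand genes had 0 UMIs over all 11 libraries, and the highest had 58.

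In the baseline experiment, Ezh2 KO libraries had higher levels of 7 members than Control and lower levels of none, and 27 did not pass the test. Of all 18177 genes tested, 2.81% were called higher and 0.655% lower in this comparison. Among the signal transducers 1 of 3 members rose, among the IFIT genes 1 of 4, in the ISG15 system 2 of 2, among other antiviral effectors 1 of 6 and among other induced genes 2 of 5, while none of the 4 OAS genes, 4 sensors or 6 GTPases passed. The median log2 change of the 34 was 0.15, beside -0.00 for all genes tested, and 28 of 34 were above 0. Without overlap between the groups' CPM values, 12 members were higher and 1 was lower, beside 17.4% and 30.5% of all genes.

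Among the signal transducers, Irf7, the transcription factor that amplifies type I interferon production, had 6.53 and 7.66 CPM in Control and 8.95 and 11.9 CPM in Ezh2 KO. Both Ezh2 KO libraries lay above both Control libraries, and the log2 change was 0.59 (SE 0.08, edgeR adjusted p = 0.035). Irf9 and Stat2, of the ISRE-binding complex, changed by 0.24 (SE 0.05, adjusted p = 0.062) and 0.10 and did not pass.

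Isg15, a ubiquitin-like protein that is conjugated to other proteins, had 18.6 and 21.2 CPM in Control and 26.6 and 30.0 CPM in Ezh2 KO. Its change was 0.56 (SE 0.09, adjusted p = 0.0498), with no overlap between the groups. Usp18, the protease that removes ISG15 and damps receptor signalling, had 6.92 and 8.05 CPM in Control and 10.2 and 12 CPM in Ezh2 KO. Both members of the ISG15 system thus rose, Usp18 by 0.61 (SE 0.09, adjusted p = 0.043). Ifit1, which binds viral RNA caps and blocks their translation, had 6.08 and 8.32 CPM in Control and 9.48 and 11.5 CPM in Ezh2 KO, a change of 0.60 (SE 0.09, adjusted p = 0.040). The sister gene Ifit3 changed by 0.86 (SE 0.21) and did not pass (adjusted p = 0.094).

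Ifi27l2a, a small interferon-induced membrane protein, moved most. It had 13.6 and 14.8 CPM in Control and 61.1 and 42.2 CPM in Ezh2 KO, and both Ezh2 KO libraries were far above all 4 other baseline libraries (9.52 and 11.7 CPM in Jarid2 KO). Its change from Control was 1.90 (SE 0.21, adjusted p = 0.028). Rtp4, a receptor chaperone with antiviral activity, had 23.5 and 23.4 CPM in Control and 31.9 and 40.3 CPM in Ezh2 KO, a change of 0.66 (SE 0.08, adjusted p = 0.033). Ifi44 had 18.2 CPM in the male and 26.3 CPM in the female Control, and 23.8 and 36.5 CPM in the same sexes of Ezh2 KO. The groups overlap for this gene, and the call (0.48, SE 0.07, adjusted p = 0.038) comes from comparing within sex.

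**Figure D1:**
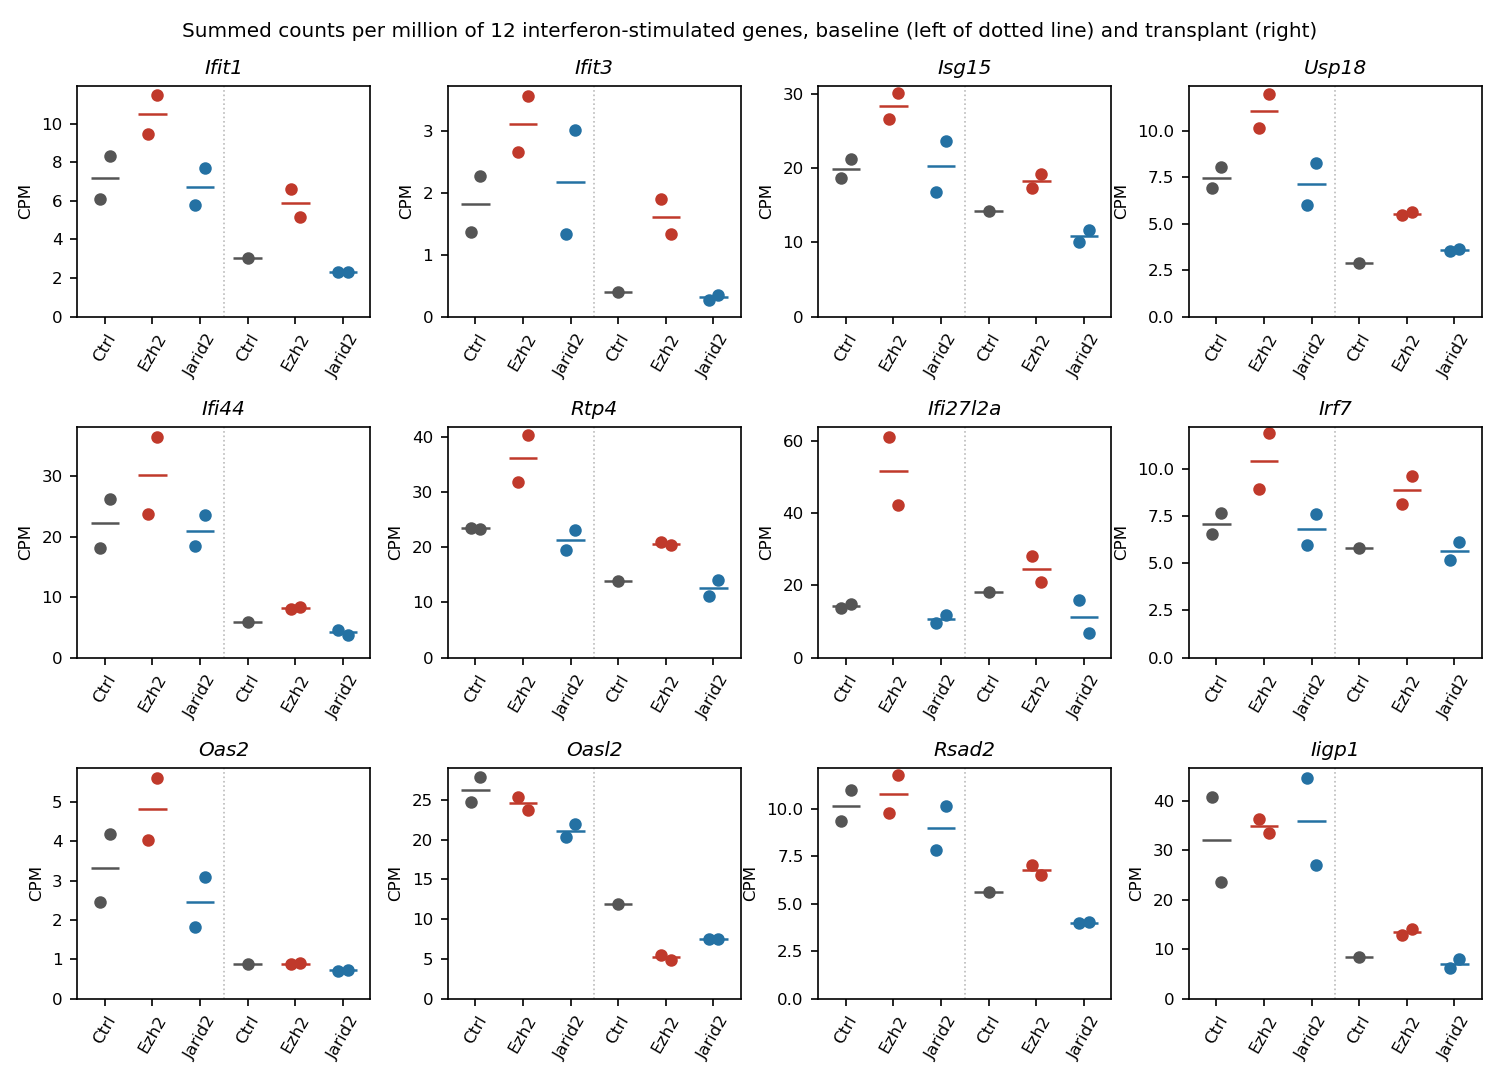
Level of 12 members in each library, in CPM on a linear axis from 0; each point is 1 library, the short line is the group mean, and the dotted line parts baseline from transplant libraries. Ifi27l2a reaches 42.2 and 61.1 CPM in the baseline Ezh2 KO libraries, and Oasl2 drops to 4.90 and 5.52 CPM in the transplant Ezh2 KO libraries.

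Markers of several cell types moved with this comparison. B-lineage cells made up 6.87% and 2.76% of the kept cells of Control, against 21.5% and 12.6% of Ezh2 KO cells and 3.64% and 4.43% of Jarid2 KO cells. The summed level of the 12 B-lineage markers was 774 to 1828 CPM in Control and 2195 to 3829 CPM in Ezh2 KO, with 3 of the 12 called higher and none at 0. The 12 lymphoid-primed markers summed to 923 to 1255 CPM in Control and 1278 to 1743 CPM in Ezh2 KO, with 5 called higher. The 12 cycling markers summed to 1370 to 1479 CPM and 1661 to 1964 CPM, also with 5 called higher. None of either list was called lower or was at 0. The sum of the 12 HSC markers was 1979 to 2167 CPM in Control and 1633 to 1821 CPM in Ezh2 KO, with none called. Of the other lists, 2 megakaryocyte-primed markers were called lower, and 2 dendritic, 2 basophil or mast, 2 neutrophil and 1 T, NK or innate lymphoid markers higher. The part of these cells in the member changes was not tested in the whole libraries beyond the classes left out next. When cells of B-lineage, dendritic, basophil, T, NK and innate lymphoid classes were left out, 4 members were called: Ifi27l2a by 1.19, Rtp4 by 0.74, Irf7 by 0.68 and Ifi44 by 0.53 (adjusted p from 0.044 to 0.046), while Isg15 changed by 0.55 (adjusted p = 0.087), Usp18 by 0.57 (0.078) and Ifit1 by 0.70 (0.059). The part of B-lineage cells in the change of Ifi27l2a, which was 1.90 with them, was otherwise not tested.

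The calls rested on few libraries. Leaving out the male Control, the female Control, the male Ezh2 KO or the female Ezh2 KO left 2, 1, 1 and 2 members called, leaving out either Jarid2 KO library left 5, and without the sex term none passed, although in that last fit the changes of the 7 stayed between 0.48 and 1.90.

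Jarid2 KO libraries showed no called member against baseline Control by edgeR or DESeq2, with 0.0330% of all genes called. At an unadjusted p under 0.05 edgeR gave 4 members and DESeq2 gave 2. The median change of the 34 was -0.06, beside 0.00 for all genes, and 10 of 34 were above 0. The 5 members with the highest levels were Bst2 (tetherin, which holds budding virus at the membrane), Trim30a, Eif2ak2 (the RNA-activated kinase PKR), Gbp7 and Ifi47. Bst2 had 129 and 138 CPM in Control and 130 and 134 CPM in Jarid2 KO, so the values overlapped. Ifi47, a GTPase of the IRG family, had 47.0 and 45.6 CPM in Control and 40.6 and 37.4 CPM in Jarid2 KO, a change of -0.23 (SE 0.04, adjusted p = 0.23).

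Set directly against Ezh2 KO, Jarid2 KO had lower levels of 10 members and higher levels of none, beside 4.42% and 1.49% of all genes. The comparison shares its Ezh2 KO libraries with the one above. The 7 members just described were all among them. Ifi27l2a fell by 2.30 (SE 0.22, adjusted p = 0.016), Rtp4 fell by 0.78, and the changes of the other 5 ran from -0.67 to -0.52. The OAS enzymes make the 2′-5′ oligoadenylate that activates RNase L. Oas2 had 4.03 and 5.62 CPM in Ezh2 KO and 1.81 and 3.09 CPM in Jarid2 KO (-1.03, SE 0.13, adjusted p = 0.027), with no overlap. Oas3 fell by 0.51 (adjusted p = 0.048) and Ifi47 fell by 0.34 (adjusted p = 0.025). Cell type markers moved here too: of 12 each, 10 B-lineage, 6 lymphoid-primed and 5 cycling markers were called lower in Jarid2 KO, and 1 B-lineage and 6 HSC markers higher. Of the other lists, 4 macrophage or monocyte, 3 dendritic and 2 basophil or mast markers were lower, and 3 T, NK or innate lymphoid, 2 megakaryocyte-primed, 1 myeloid-primed and 1 basophil or mast markers higher. Without the B-lineage, dendritic, basophil, T, NK and innate lymphoid classes 7 members were called lower and none higher. The part of lymphoid-primed, cycling and HSC-like cells in the member changes was not tested in the whole libraries. Leaving out the male Jarid2 KO left 0 members called, leaving out the female Jarid2 KO left 3, leaving out the male Ezh2 KO left 2, and omitting the sex term left 1.

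**Figure D2:**
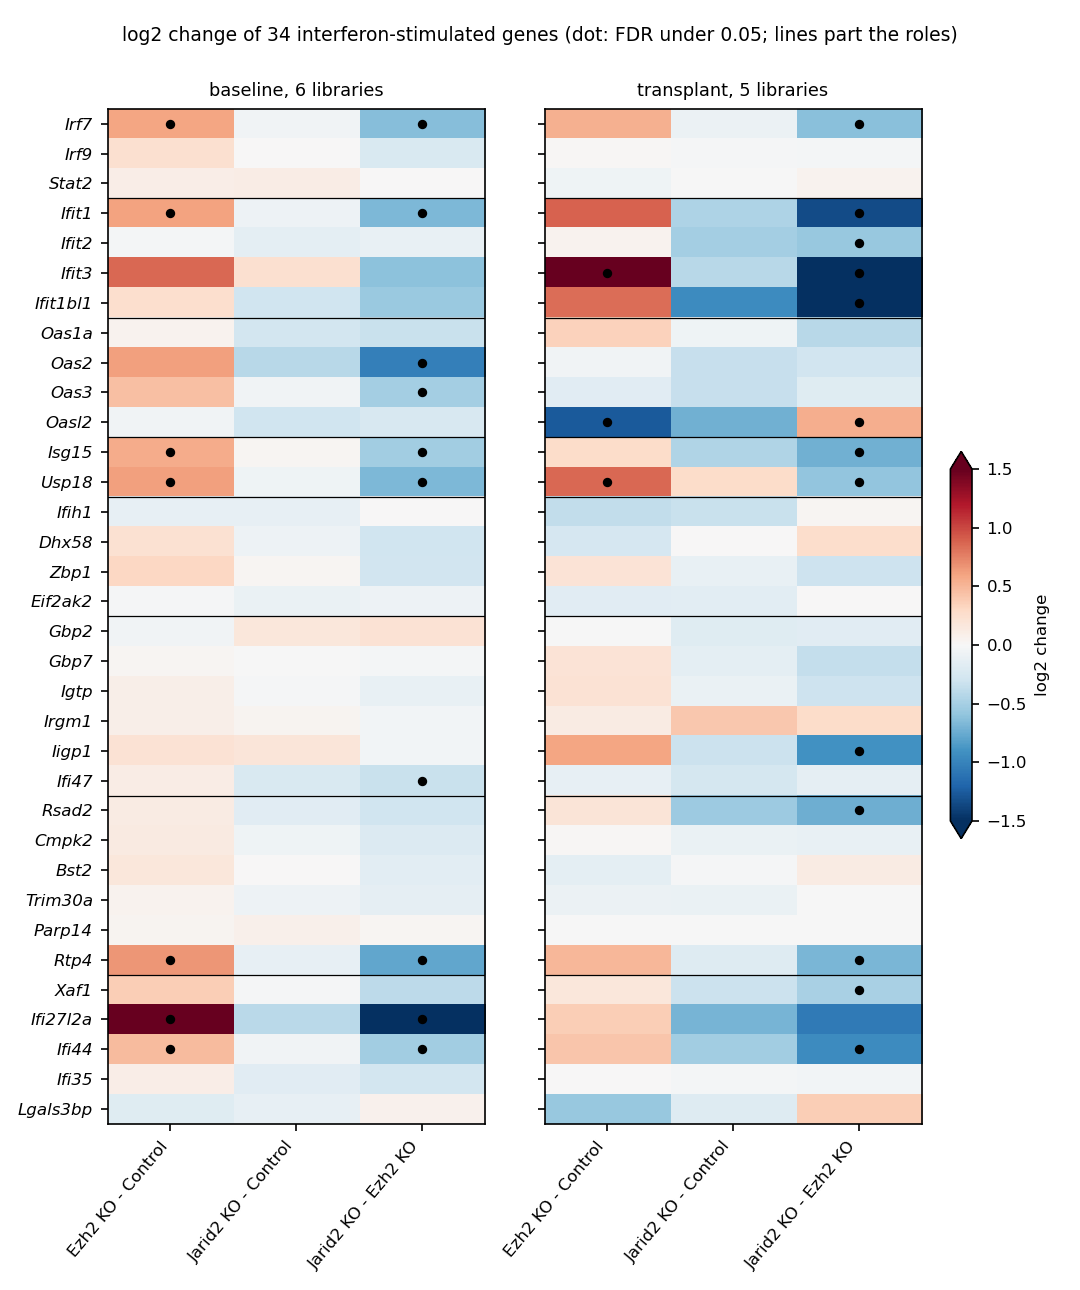
Heat map of the log2 change of the 34 members (rows, grouped by role) in 3 comparisons of the baseline and 3 of the transplant experiment; red is higher and blue lower in the first-named group, the scale ends at 1.5 in each direction, and a dot marks an adjusted p under 0.05. The Jarid2 KO against Ezh2 KO columns carry 10 dots at baseline and 13 in the transplant.

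Female and male baseline libraries differed in 1 called member by edgeR, with 0.264% of all genes called higher in females. At an unadjusted p under 0.05 edgeR gave 18 members and DESeq2 gave 16. The median change of the 34 was 0.12, beside 0.00 for all genes, and 25 of 34 were above 0. The 6 GTPases were all below 0 (-0.54 to -0.05), and the IFIT, OAS and sensor members were all above 0. Ifi44 was higher in females in each genotype, with 26.3 against 18.2 CPM in Control, 36.5 against 23.8 CPM in Ezh2 KO and 23.6 against 18.4 CPM in Jarid2 KO (0.51, SE 0.06, adjusted p = 0.040). DESeq2 called 7 members higher and 1 lower in females, and its share over all genes is not given here. The edgeR call of Ifi44 was lost in 4 of the fits with 1 library left out, among them those without either Control library.

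In the transplant experiment, Ezh2 KO libraries differed from the single Control library in 3 members, 2 higher and 1 lower, with 3.40% and 1.44% of all 15758 genes called in those directions. Ifit3, of the IFIT family, had 0.40 CPM in Control and 1.90 and 1.33 CPM in Ezh2 KO (1.94, SE 0.37, adjusted p = 0.040). Usp18 had 2.87 CPM in Control and 5.46 and 5.62 CPM in Ezh2 KO (0.87, SE 0.15, adjusted p = 0.028). Both knockout libraries lay above the Control in each case, although Ifit3 is near the lower end of what these libraries can measure.

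Oasl2, an OAS-like protein that carries ubiquitin-like domains, went the other way. It had 11.9 CPM in the transplant Control, 7.47 and 7.45 CPM in Jarid2 KO and 5.52 and 4.90 CPM in Ezh2 KO. All 4 knockout libraries lay below the Control, and Ezh2 KO lay below Jarid2 KO. The change in Ezh2 KO was -1.26 (SE 0.15, adjusted p = 0.0075) and that in Jarid2 KO was -0.72 (SE 0.15, adjusted p = 0.16). At baseline the same gene had 24.7 and 27.9 CPM in Control, 25.4 and 23.7 CPM with Ezh2 KO and 20.3 and 22 CPM with Jarid2 KO, so Ezh2 KO and Control overlapped there. The Ezh2 KO against Control change of Oasl2 differed between transplant and baseline by -1.20 (SE 0.19, edgeR adjusted p = 0.046), the only member called in that interaction, beside 0.0950% of all genes called in that direction. Of the 10 libraries other than the transplant Control, leaving out the female baseline Control kept this call, and leaving out any of the other 9 lost it (0 members called). Among cells called male alone, the transplant change of Oasl2 was -1.37 (adjusted p = 0.027), and neither Ifit3 (2.02, adjusted p = 0.21) nor Usp18 (0.67, adjusted p = 0.22) passed. Leaving out Ezh2 KO replicate 1 left Oasl2 alone called, and leaving out either Jarid2 KO library gave 4 members higher and 2 lower. Cell type markers also differed between these libraries. The B-lineage markers summed to 138 CPM in Control and 644 to 816 CPM in Ezh2 KO (11 of 12 called higher), the lymphoid-primed markers to 828 CPM and 1394 to 1410 CPM (8 of 12 higher), and the myeloid-primed markers to 12582 CPM and 9687 to 10368 CPM (3 of 12 lower), with none of the 3 lists' markers at 0. The T, NK or innate lymphoid markers summed to 454 CPM and 311 to 349 CPM, with 5 of 11 tested called higher and 1 lower. Of the other lists, 2 HSC, 2 dendritic, 2 stroma or endothelium, 1 erythroid-primed and 1 megakaryocyte-primed markers were higher, and 3 macrophage or monocyte, 1 HSC, 1 megakaryocyte-primed, 1 basophil or mast and 1 neutrophil markers lower. The part of these cells, and of the share of barcodes over the mitochondrial limit, in the changes of Ifit3 and Usp18 was not tested in the whole libraries, and Oasl2 is given within transcript classes below.

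No member passed in transplant Jarid2 KO against Control by edgeR or DESeq2, with 0.336% of all genes called, and edgeR gave 9 and DESeq2 gave 7 members at an unadjusted p under 0.05. The median change of the 34 was -0.18, beside 0.01 for all genes, and 31 of 34 were below 0. Isg15, with 14.2 CPM in Control and 10.0 and 11.6 CPM in Jarid2 KO, changed by -0.45 (SE 0.11, adjusted p = 0.28). The 12 B-lineage markers summed to 138 CPM in Control and 479 to 672 CPM in Jarid2 KO (3 called higher), and the 12 myeloid-primed markers to 12582 CPM and 14754 to 19276 CPM (none called). Of the other lists, 2 basophil or mast markers were lower, and 1 lymphoid-primed, 1 dendritic and 1 T, NK or innate lymphoid markers higher. The part of these cells in the levels of the members was not tested in the whole libraries. With 1 Control library, the spread of that group was not measured.

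Between the knockouts, with replicates on both sides, Jarid2 KO had lower levels of 12 members and a higher level of 1 than Ezh2 KO in the transplant, beside 7.67% and 4.37% of all genes. All 4 IFIT genes and both genes of the ISG15 system fell, as did 1 of 3 signal transducers, 1 of 6 GTPases, 2 of 6 other antiviral effectors and 2 of 5 other induced genes. None of the 4 sensors passed, and the only OAS gene to pass was Oasl2, which was higher in Jarid2 KO (0.55, SE 0.12, adjusted p = 0.038). Ifit1 had 6.63 and 5.18 CPM in Ezh2 KO and 2.29 and 2.29 CPM in Jarid2 KO (-1.34, SE 0.17, adjusted p = 0.0056). Ifit3 fell by 2.36 (SE 0.29), Ifit1bl1 by 1.78 (SE 0.27) and Ifit2 by 0.56 (SE 0.12), with adjusted p of 0.0047, 0.010 and 0.033.

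Isg15 had 17.2 and 19.2 CPM in transplant Ezh2 KO against 10.0 and 11.6 CPM in Jarid2 KO (-0.72, SE 0.09, adjusted p = 0.0052). Iigp1, a GTPase that attacks the membrane around intracellular pathogens, had 12.8 and 14.2 CPM in Ezh2 KO and 6.14 and 7.96 CPM in Jarid2 KO (-0.91, SE 0.11, adjusted p = 0.0048). Rsad2 encodes viperin, which makes a chain-terminating nucleotide, and had 7.06 and 6.51 CPM against 3.96 and 4.03 CPM (-0.74, SE 0.12). In each of these genes both Ezh2 KO libraries lay above both Jarid2 KO libraries and the Control lay between the groups. Rtp4 fell by 0.69, Irf7 by 0.63, Usp18 by 0.59, Ifi44 by 0.94 and Xaf1, which opposes an inhibitor of apoptosis, by 0.49 (adjusted p from 0.0089 to 0.039). Ifi27l2a, with 28.1 and 21.0 CPM in Ezh2 KO and 15.8 and 6.88 CPM in Jarid2 KO, did not pass, the 2 Jarid2 KO libraries being far apart.

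The mix of cells differed between the transplant knockouts. Of the B-lineage markers 11 of 12 were called lower in Jarid2 KO and 1 higher, with a sum of 479 to 672 CPM against 644 to 816 CPM in Ezh2 KO. Of the lymphoid-primed markers 7 of 12 were lower (859 to 871 CPM against 1394 to 1410 CPM), and of the myeloid-primed markers 8 of 12 were higher (14754 to 19276 CPM against 9687 to 10368 CPM). In the other lists, 4 erythroid-primed and 4 megakaryocyte-primed markers were lower and 1 megakaryocyte-primed marker higher, 4 macrophage or monocyte markers were higher, and HSC and dendritic markers went both ways (3 and 4 higher, 2 and 3 lower). T, NK or innate lymphoid markers had 2 higher and 2 lower, and basophil or mast markers 1 higher and 2 lower. Of the rest, 2 neutrophil markers were higher and 3 of 5 tested stroma or endothelium markers lower. Myeloid-primed cells, the named transplant class with the lowest summed member level, were 12.1% and 11.1% of Ezh2 KO cells and 29.0% and 28.5% of Jarid2 KO cells. Of the 3 clusters in that class, 1 had a median of 1345 UMIs per cell in Control, against 23520 and 29652 in the others, and held 2.20% and 1.62% of Ezh2 KO cells and 10.0% and 4.63% of Jarid2 KO cells. The part of this mix and of the mitochondrial share in the member changes was not tested in the whole libraries, and the counts within single classes are given below.

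Restricting the transplant libraries to male cells left 7 members lower and 1 higher in Jarid2 KO than in Ezh2 KO. The strict cell filter left 5 lower and none higher, and leaving out Ezh2 KO replicate 2 left 8 lower. In the main edgeR fit no member's Jarid2 KO against Ezh2 KO change differed between transplant and baseline, with 9 at an unadjusted p under 0.05 and 2.46% of all genes called. DESeq2 called 1. That main fit held no sex term, and adding one for the baseline libraries gave called members, counted in the closing section. For Jarid2 KO against Control the interaction called 0 members by edgeR and DESeq2, 0 at an unadjusted p under 0.05 with either, and 0.00% of all genes.

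The rest of the pathway was read from 7 lists. The receptors and their kinases are known to be needed for any response, and 0 of 9 tested genes of that list passed in baseline Ezh2 KO against Control. In the list of STAT and IRF factors outside the members, 1 of 9 rose, Irf8, a factor of lymphoid, dendritic and myeloid development, from 38.4 and 35 CPM to 44.5 and 49.3 CPM (0.40, SE 0.07, adjusted p = 0.0497). None of 12 negative regulators, 11 upstream sensors and adaptors or 15 genes of MHC class I and antigen processing passed. Of 66 tested genes on the list of other interferon-induced genes, 1 was higher (Ifi204, of the DNA-sensing p200 family, at 2.0 CPM or less) and none lower, beside 2.81% and 0.655% of all genes.

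Between the baseline knockouts 5 of those 66 genes fell and none rose, beside 4.42% and 1.49% of all genes. Of 9 receptor and kinase genes 1 was called lower, Ifnlr1, a chain of the type III interferon receptor, with 1.42 and 0.93 CPM in Ezh2 KO and 0.11 and 0.20 CPM in Jarid2 KO (-2.89, SE 0.44, adjusted p = 0.034). Of 11 upstream sensors and adaptors 1 was called lower, Tlr7, a receptor for single-stranded RNA, with 5.60 and 4.87 CPM against 3.51 and 3.35 CPM (-0.63, SE 0.11, adjusted p = 0.041). Tdrd7 fell by 0.44 from 13.0 and 14.5 CPM to 9.5 and 11.1 CPM, and Ifi209, a p200 gene, fell by 1.14 from 12.8 and 9.7 CPM to 4.6 and 5.6 CPM. Irf8 was 1.00 lower in Jarid2 KO (23.1 and 24.4 CPM), and H2-Q6 and H2-Q4, of the nonclassical MHC class I genes, were 0.33 and 0.21 higher. In the transplant, 8 of 66 were higher and 2 lower in Ezh2 KO than in Control, beside 3.40% and 1.44% of all genes. Ifi209 was higher by 0.74 (11.9 CPM against 19.2 and 22.9 CPM), and Samd9l, a restriction factor against poxviruses, by 0.60 (19.9 CPM against 32.0 and 31.9 CPM). Tor3a was lower by 0.56, and Ifi206, of the same p200 family, was higher by 2.34 at 0.8 CPM against 3.8 and 4.5 CPM. Between the transplant knockouts 10 of 66 were lower and 5 higher in Jarid2 KO, beside 7.67% and 4.37% of all genes, so both directions occurred in that list. Of 8 tested receptor and kinase genes 1 was called, Ifngr1, a chain of the interferon gamma receptor, with 116 and 127 CPM in Ezh2 KO and 158 and 211 CPM in Jarid2 KO (0.62, SE 0.13, adjusted p = 0.026). Of the 9 STAT and IRF list genes 1 was called, Irf2bp2, an IRF2-binding corepressor, which was higher in Jarid2 KO by 0.42 (adjusted p = 0.047).

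The antibody counts of the baseline libraries gave a view of the members by stage that does not use RNA. Within each library, cells were gated on CD150, CD48 and CD135 counts, where high was the top 33.3% and low the bottom 50% of cells. HSC-gated cells were CD150 high, CD48 low and not CD135 high, and MPP2 were CD150 high, CD48 high and not CD135 high. MPP3 were CD150 low, CD48 high and CD135 low, and MPP4, the lymphoid-biased progenitors, were CD135 high and CD150 low. Gates held 241 to 2286 cells per library, and their sizes follow from the quantiles. Transcripts of the marker genes followed the gates: Procr had a median of 38.5 CPM over 6 libraries in HSC and 5.06 to 11.8 CPM in the other gates, Cd48 6.37 CPM in HSC and 112 to 170 CPM elsewhere, and Flt3 573 CPM in MPP4 and 45.3 to 80.9 CPM elsewhere. The contents of a gate still differed between libraries. In HSC-gated cells Dntt, a lymphoid gene, had 3.33 and 2.22 CPM in Control, 62.2 and 16.2 CPM in Ezh2 KO and 3.31 and 1.45 CPM in Jarid2 KO, and Cd48 had 7.34 and 5.41, 25.3 and 16.4, and 4.20 and 3.19 CPM in the same order. Elane, a myeloid gene, had 24.9 CPM in the female Ezh2 KO and at most 1.78 CPM in the other 5 libraries. In MPP2, Dntt ran from 17.3 to 417 CPM, highest in the male Ezh2 KO. Pf4, a megakaryocyte gene, had 368 and 385 CPM there in Control, 84.6 and 187 CPM in Ezh2 KO and 402 and 363 CPM in Jarid2 KO. In MPP4, Dntt had 696 and 481, 808 and 652, and 403 and 288 CPM in the same order. Cd48 had 129 and 93.1, 146 and 124, and 100 and 63.2 CPM there. Hlf, a stem cell gene, had 400 and 466, 385 and 385, and 513 and 729 CPM. Flt3 and Mpo overlapped between the knockouts in MPP4.

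Against MPP2, HSC-gated cells had 24 members higher and 1 lower, against MPP3 17 higher and 2 lower, and against MPP4 7 higher and 11 lower. Of all 15459 genes, 29.8%, 33.7% and 23.4% were called higher and 29.4%, 31.0% and 26.6% lower in these 3 comparisons. The median change of the 34 was 0.48, 0.26 and -0.09, beside 0.02, 0.04 and -0.02 for all genes. By mean level, 15 members were highest in HSC, 17 in MPP4, 2 in MPP3 and none in MPP2, which had the lowest level of 26.

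Members called higher in HSC against each of the 3 other gates, and higher there in 6 of 6 libraries, were Iigp1, Gbp2, Gbp7, Igtp, Ifih1 and Lgals3bp. Of these 6, 4 are interferon-inducible GTPases, which attack the vacuoles of intracellular pathogens. The share of all genes that meet this joint rule is not given here, and against MPP4 alone 7 of 34 members were called higher, beside 23.4% of all genes. Of the other GTPases, Irgm1 was above MPP4 in 5 of 6 libraries and Ifi47 in 2 of 6, and neither was called against MPP4. Iigp1 had 42.8 to 82.7 CPM in HSC (median 56.3, 6 libraries), 3.84 to 16.9 CPM in MPP2, 11.4 to 22.7 CPM in MPP3 and 20.4 to 41.2 CPM in MPP4. The HSC values lay above those of every other gate in all 6 libraries, by 2.31 (SE 0.18), 1.58 (SE 0.18) and 0.87 (SE 0.15), with adjusted p of 2.9e-09, 1.6e-07 and 6.0e-05. Ifih1, the double-stranded RNA sensor MDA5, had 34.7 to 42.6 CPM in HSC, 12.4 to 24.4 CPM in MPP2, 10.8 to 18.5 CPM in MPP3 and 17.5 to 25.1 CPM in MPP4, again with no overlap. Its change from MPP4 was 0.80 (SE 0.08, adjusted p = 2.9e-08). Gbp2, Gbp7 and Igtp were higher in HSC than in MPP4 by 0.50, 0.44 and 0.43, each in 6 of 6 libraries.

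Other members ran lower in HSC than in MPP4. Irf7 had 5.30 to 7.81 CPM (median 6.28) in HSC and 7.19 to 18.0 CPM (median 10.9) in MPP4, higher in MPP4 in 6 of 6 libraries (-0.92, SE 0.14, adjusted p = 1.8e-05). Oas2 had 1.05 to 3.24 CPM in HSC and 2.87 to 9.12 CPM in MPP4 (-1.51, SE 0.17, adjusted p = 1.7e-07), and 3 of 4 OAS genes were lower in HSC. Rtp4 was lower by 0.77 and Isg15 by 0.39 in HSC, also in 6 of 6 libraries. Ifi27l2a was lower in HSC than in all 3 gates, with medians of 4.24 CPM in HSC, 11.0 CPM in MPP2, 28.0 CPM in MPP3 and 24.4 CPM in MPP4. Against MPP4 its change was -2.15 (SE 0.28, adjusted p = 1.8e-06).

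Oasl2, Ifi44 and Rsad2 were lower in MPP2 and MPP3 than in HSC and were not called between HSC and MPP4. Oasl2 had medians of 28.3 CPM in HSC, 11.1 CPM in MPP2, 10.4 CPM in MPP3 and 27.8 CPM in MPP4, and Ifi44 medians of 29.3, 7.98, 11.2 and 29.5 CPM. The changes of Oasl2 from MPP2 and MPP3 were 1.41 and 1.29 (SE 0.12 each), and that from MPP4 was 0.04 (SE 0.10, adjusted p = 0.77). For Ifi44 the change from MPP4 was 0.12 (SE 0.14, adjusted p = 0.49). Rsad2 was higher in HSC than in MPP2 and MPP3 by 1.36 and 1.02 (SE 0.20 each). Its medians were 12.3 CPM in HSC and 10.4 CPM in MPP4, higher in HSC in 4 of 6 libraries (0.25, SE 0.16, adjusted p = 0.22).

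**Figure D3:**
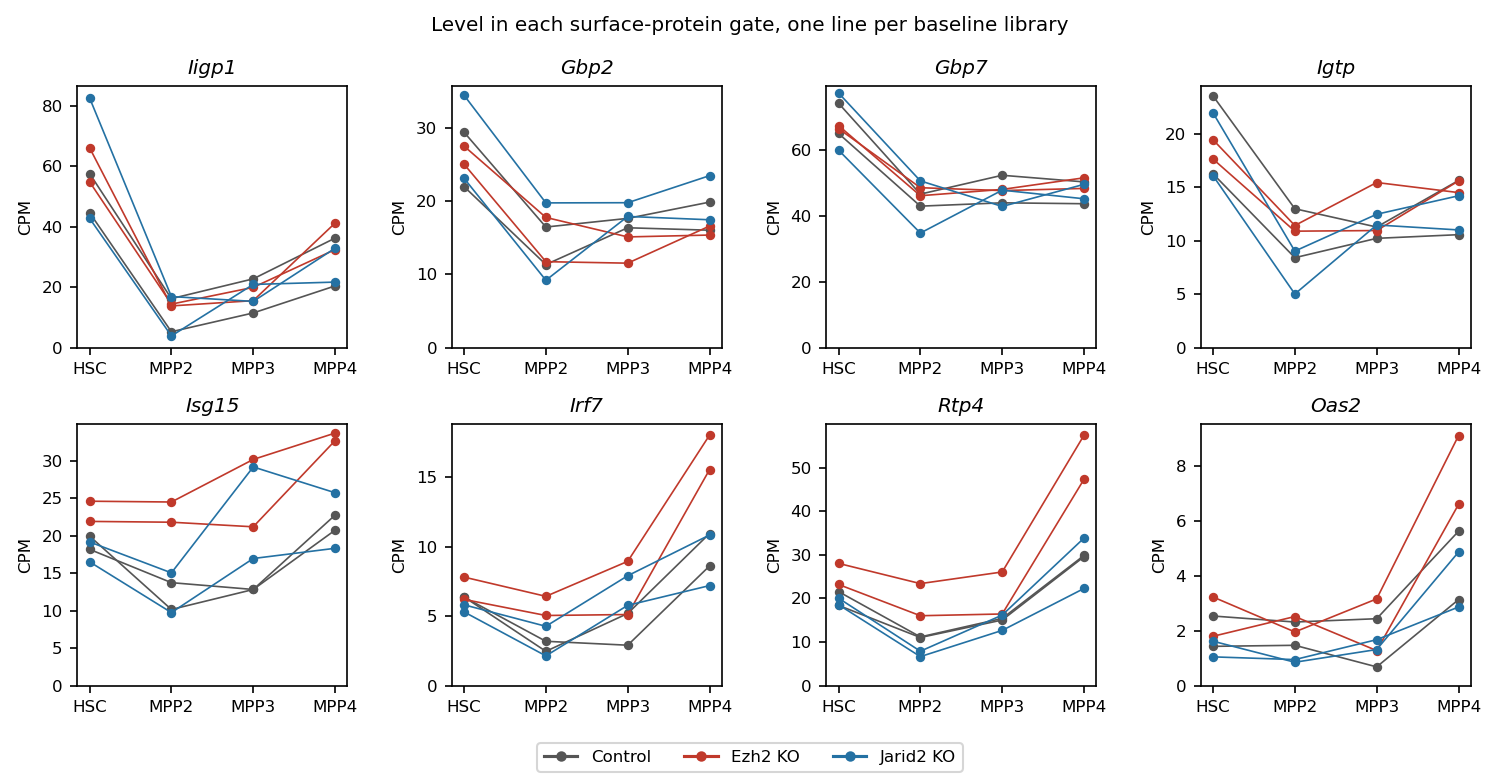
Level of 8 members in 4 surface-protein gates of each baseline library, in CPM; each line joins the 4 gates of 1 library, coloured by genotype. The GTPases in the upper row are highest in HSC, and Isg15, Irf7, Rtp4 and Oas2 in the lower row are higher in MPP4 than in HSC in all 6 libraries.

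The genotype comparisons were repeated inside each gate. In MPP4, Ezh2 KO had 6 members higher than Control and none lower, beside 0.776% of all genes called higher. They were Ifi27l2a, Oas2, Rtp4, Irf7, Ifi44 and Isg15, all but Oas2 also called in the whole libraries. Rtp4 had 29.6 and 29.9 CPM in Control, 47.3 and 57.5 CPM in Ezh2 KO and 22.3 and 33.9 CPM in Jarid2 KO within MPP4. Both Ezh2 KO libraries lay above the other 4, and the change from Control was 0.84 (SE 0.11, adjusted p = 0.016). Irf7 had 8.61 and 10.9 CPM in Control and 15.5 and 18.0 CPM in Ezh2 KO there (0.81, SE 0.12, adjusted p = 0.021), and Isg15 had 20.7 and 22.7 CPM against 32.7 and 33.7 CPM (0.64, SE 0.10, adjusted p = 0.032).

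In HSC-gated cells the same comparison called 0 members by edgeR and DESeq2, with 4 and 2 at an unadjusted p under 0.05 and 0.475% of all genes called. Irf7 had 6.37 and 6.38 CPM in Control and 6.20 and 7.81 CPM in Ezh2 KO there, so the groups overlapped. Ifi27l2a had 2.98 and 3.95 CPM in Control and 29.7 and 11.8 CPM in Ezh2 KO there, with both Ezh2 KO libraries above both Control libraries, and its change of 2.57 (SE 0.50) did not pass (edgeR adjusted p = 0.15). Dntt and Cd48 were also higher in the HSC gate of both Ezh2 KO libraries, as given above, and their part in changes inside the gates was not tested. In MPP2, 1 of 32 tested members was called, Ifi27l2a, with 12.3 and 4.50 CPM in Control and 95.9 and 49.0 CPM in Ezh2 KO (3.25, SE 0.38, adjusted p = 0.0060), beside 2.88% of all genes called higher. MPP3 gave 0 by edgeR (8 at an unadjusted p under 0.05, 0.185% of all genes) and 1 by DESeq2. The Jarid2 KO libraries are not compared here, but they share the fit, its estimate of the spread and its sex term. Leaving out either of them raised the number of members called in any gate above 6.

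That a change passed in MPP4 and not in HSC does not show that the gates differ, and the difference was tested with a gate by genotype term, a fit added after the counts within gates had been seen. For Ezh2 KO against Control it called 0 of 34 members for MPP4, MPP3 or MPP2 against HSC by edgeR, with 6, 4 and 8 at an unadjusted p under 0.05 and 0.189%, 0.309% and 0.221% of all genes called. In the same order 30, 26 and 28 of 34 were above 0 (medians 0.20, 0.16 and 0.24), beside 51.0%, 50.7% and 51.4% of all genes. For Jarid2 KO against Ezh2 KO, Ifi44 and Rtp4 were called for MPP2 against HSC, both negative, beside 1.65% of all genes called in that direction. Ifi44 had 26.4 and 43.1 CPM in Ezh2 KO and 29.7 and 28.9 CPM in Jarid2 KO within HSC, but 10.6 and 18.2 CPM and then 3.56 and 5.23 CPM within MPP2, a difference of the differences of -1.44 (SE 0.32, adjusted p = 0.025). For Rtp4 it was -1.02 (SE 0.20, adjusted p = 0.011). The calls were lost for both genes when the female Jarid2 KO, the male Ezh2 KO or the female Ezh2 KO was left out, and that of Ifi44 also without the male Jarid2 KO (-1.15, adjusted p = 0.071).

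Jarid2 KO against Ezh2 KO gave 12 members lower and none higher in MPP4 (2.34% of all genes called lower), 3 lower in MPP2 (3.78%), 1 lower in MPP3 (0.748%) and 0 in HSC by edgeR and DESeq2 (7 and 3 at an unadjusted p under 0.05, 0.580%). The 12 in MPP4 were Ifi27l2a, Ifit1, Oas2, Rtp4, Irf7, Usp18, Ifi44, Oas3, Isg15, Dhx58, Ifi47 and Irf9, with changes from -1.64 to -0.36. Dntt, Cd48 and Hlf also separated the knockouts in MPP4, as given above, and the part of such cell contents was not tested. Ifit1 had 12.3 and 14.0 CPM in Ezh2 KO and 3.40 and 8.4 CPM in Jarid2 KO in that gate (-1.25, SE 0.22, adjusted p = 0.026). Jarid2 KO against Control gave 0 in all 4 gates by edgeR and DESeq2, with 0 to 7 members at an unadjusted p under 0.05 by edgeR and 0 to 2 by DESeq2, and 0.00%, 0.137%, 0.338% and 1.15% of all genes called in HSC, MPP2, MPP3 and MPP4. That 0 became 3 without the male Control, 2 without the male Jarid2 KO or either Ezh2 KO library and 1 without the female Jarid2 KO.

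**Figure D4:**
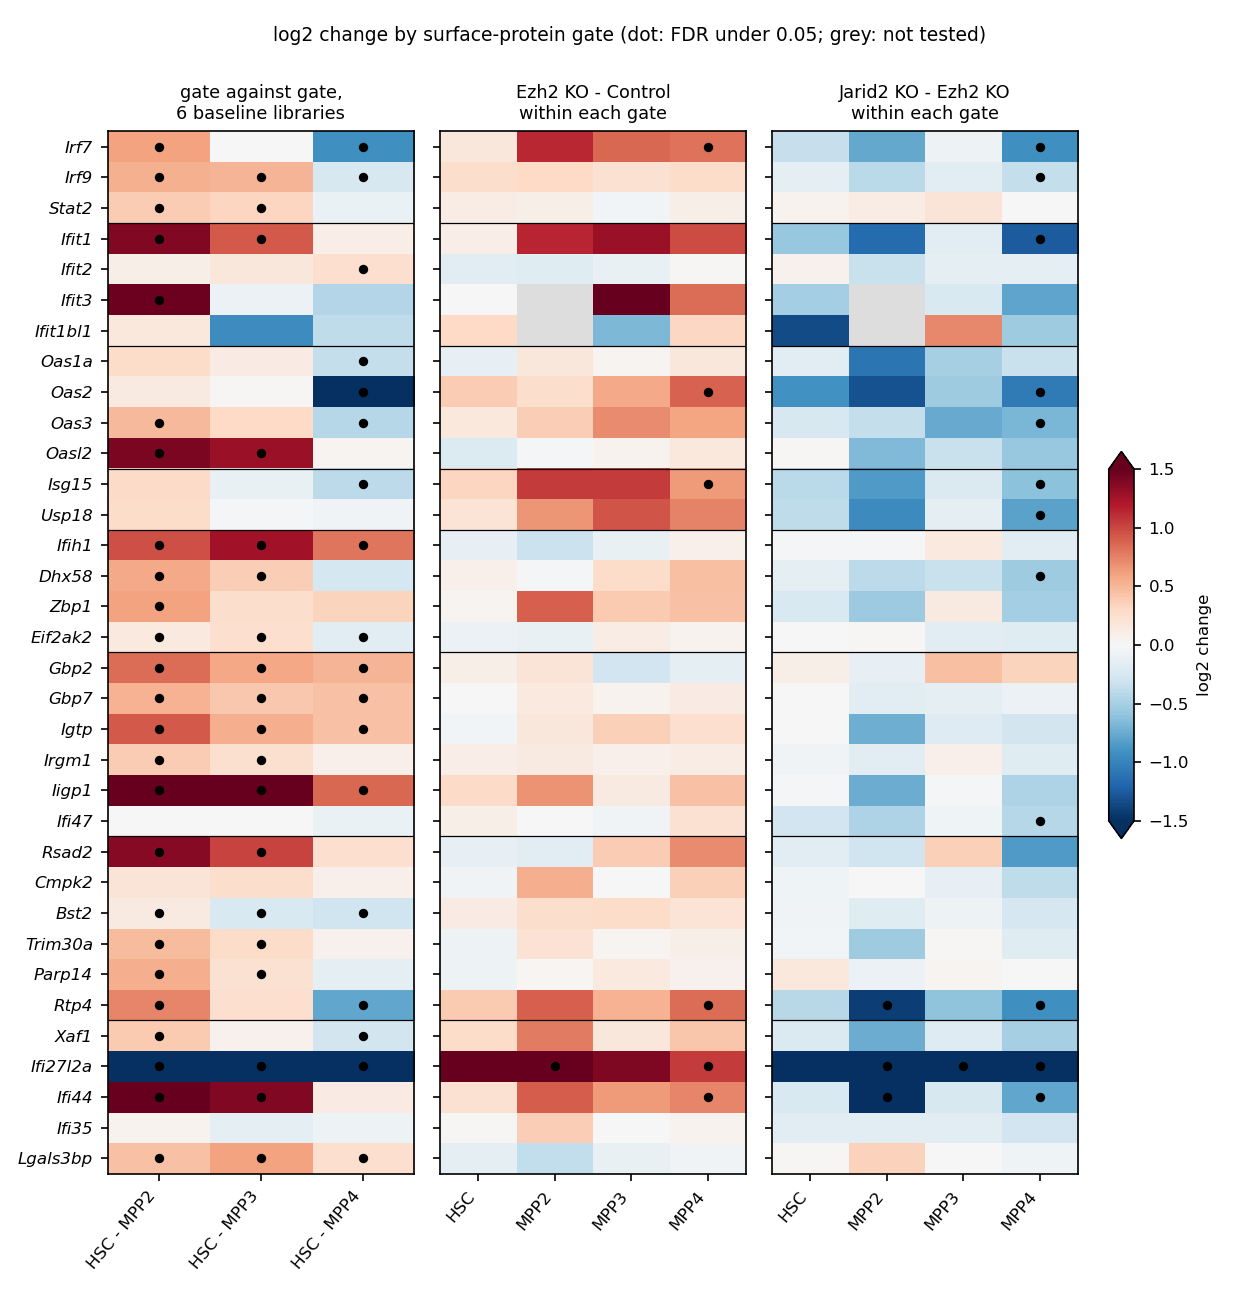
Heat map of the log2 change of the 34 members (rows) between surface-protein gates (left), and for Ezh2 KO against Control and Jarid2 KO against Ezh2 KO inside each gate (middle and right); a dot marks an adjusted p under 0.05, grey was not tested and the scale ends at 1.5. In the MPP4 column there are 6 dots for Ezh2 KO against Control and 12 for Jarid2 KO against Ezh2 KO, and in the HSC column there are none.

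Transcript classes gave the levels by cell state, as a description with no test between classes. They were built on Control cells without the members or pathway genes, and knockout cells took the class of their nearest Control cells. At baseline the summed member level was 1039 to 1270 CPM in HSC-like cells, 859 to 1201 CPM in lymphoid-primed, 713 to 859 CPM in cycling, 623 to 816 CPM in megakaryocyte-primed and 450 to 838 CPM in B-lineage cells over the 6 libraries. T, NK or innate lymphoid cells, 82 to 309 per library, gave 899 to 1611 CPM. In the transplant libraries it was 1009 to 1237 CPM in HSC-like cells, 796 to 1012 CPM in lymphoid-primed, 783 to 933 CPM in megakaryocyte-primed, 608 to 683 CPM in cycling and 426 to 493 CPM in myeloid-primed cells. By genotype, baseline Ezh2 KO lay above Control in every one of these classes except megakaryocyte-primed cells. There Control had 734 and 623 CPM, Ezh2 KO 746 and 706 CPM and Jarid2 KO 816 and 684 CPM, so all overlapped. Baseline Jarid2 KO also overlapped Control in B-lineage cells (450 and 668 against 571 and 630 CPM) and lymphoid-primed cells (859 and 962 against 926 and 1019 CPM). In the transplant, Ezh2 KO lay above Control in lymphoid-primed cells, with 1012 and 959 CPM against 907 CPM. It lay below Control in cycling cells (608 and 622 against 670 CPM) and basophil or mast cells (555 and 581 against 648 CPM). In HSC-like and megakaryocyte-primed cells the Control lay between the Ezh2 KO libraries. In myeloid-primed cells Ezh2 KO had 426 and 464 CPM against 464 CPM. Myeloid-primed cells were 11.1% to 29.0% of transplant cells and 0.28% to 1.22% of baseline cells.

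**Figure D5:**
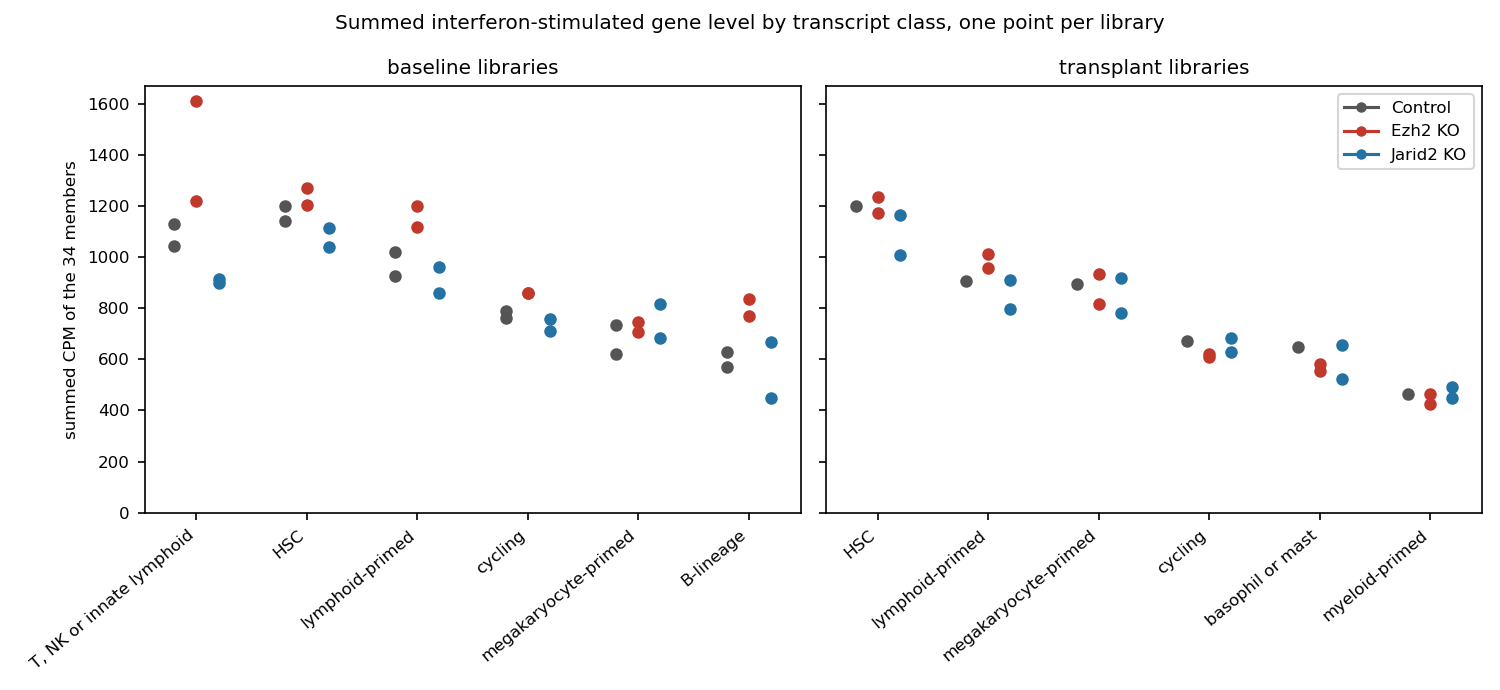
Summed CPM of the 34 members in each transcript class with at least 50 cells in every library; each point is 1 library, coloured by genotype, on a linear axis from 0. HSC-like cells range from 1039 to 1270 CPM at baseline and from 1009 to 1237 CPM in the transplant, and myeloid-primed transplant cells from 426 to 493 CPM.

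Within lymphoid-primed cells at baseline, 5 members were higher in Ezh2 KO than in Control and none lower (0.793% of all genes called higher): Ifi27l2a, Rtp4, Oas2, Ifi44 and Irf7. Ifi27l2a had 16.4 and 21.0 CPM in Control and 40.4 and 40.5 CPM in Ezh2 KO (1.14, SE 0.10, adjusted p = 0.0016). In B-lineage cells it had 42.5 and 108 CPM in Control and 183 and 190 CPM in Ezh2 KO (1.5, SE 0.28, adjusted p = 0.010), and Ifi44 rose there as well (5.42% of all genes called higher). Ifi27l2a and Rtp4 rose in cycling cells (0.900%). DESeq2 called 4 members in lymphoid-primed cells and 1 each in B-lineage and cycling cells. HSC-like cells gave 0 by edgeR and DESeq2, with 5 and 3 at an unadjusted p under 0.05 and 0.231% of all genes called. Megakaryocyte-primed and T, NK or innate lymphoid cells also gave 0 by both, with 17 of 25 and 19 of 23 members above 0 by edgeR. Ifi27l2a had 1.94 to 6.65 CPM over the Control and Ezh2 KO libraries in HSC-like cells, a low level beside those of the classes where it rose.

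Between the baseline knockouts, HSC-like cells had 2 members lower in Jarid2 KO than in Ezh2 KO and none higher, beside 0.428% of all genes called lower, with 18 members at an unadjusted p under 0.05, and DESeq2 called 1. Rtp4 had 37.4 to 39.7 CPM in Ezh2 KO, 20.1 to 25.5 CPM in Jarid2 KO and 23.1 to 32.4 CPM in Control HSC-like cells (-0.75 between the knockouts, SE 0.10, adjusted p = 0.016). Irf7 had 8.41 to 12.1 CPM in Ezh2 KO, 4.86 to 6.51 CPM in Jarid2 KO and 7.86 to 9.81 CPM in Control (-0.84, SE 0.15, adjusted p = 0.042). Both genes thus separated the knockouts in HSC-like cells. Lymphoid-primed cells had 12 members lower (1.90% of all genes), cycling cells 4 lower (1.37%), T, NK or innate lymphoid cells 4 lower (2.97%), and B-lineage cells 6 lower and Zbp1 higher (7.23% and 6.55%). DESeq2 called 9, 3 and 1 lower in the first 3 of these classes, and 2 lower and 1 higher in B-lineage cells. Megakaryocyte-primed cells gave 0 by edgeR and DESeq2, with 15 of 25 members tested above 0 by edgeR.

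By edgeR, Jarid2 KO had called members against Control in 1 baseline class. In T, NK or innate lymphoid cells Ifi27l2a had 11.6 and 25.7 CPM in Control, 24.8 and 73.7 CPM in Ezh2 KO and 0.90 and 3.43 CPM in Jarid2 KO, and fell by 3.00 from Control (SE 0.63, adjusted p = 0.015), and Iigp1 fell by 1.44 (SE 0.33, adjusted p = 0.025), beside 1.68% of all genes called lower. Of the members, 23 were tested in this small class. DESeq2 called neither. These cells were 1.04% and 1.55% of Control and 3.75% and 4.38% of Jarid2 KO cells, and whether the same cell types made up the class was not tested. The other tested baseline classes gave 0 called members by edgeR and DESeq2. Above 0 by edgeR were 7 of 34 in HSC-like, 3 of 34 in lymphoid-primed and 13 of 33 in cycling cells. In B-lineage cells 10 of 31 were above 0, and in megakaryocyte-primed cells 21 of 25 (median 0.27), beside 49.3% to 50.3% of all genes. HSC-like cells had a median of -0.21, with 13 members at an unadjusted p under 0.05 by edgeR and 2 by DESeq2.

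In transplant lymphoid-primed cells Oasl2 had 20.4 CPM in Control, 6.47 and 7.26 CPM in Ezh2 KO and 10.1 and 13.6 CPM in Jarid2 KO. It fell by 1.63 in Ezh2 KO against Control (SE 0.18, adjusted p = 0.0049) and by 1.74 in cycling cells (SE 0.31, adjusted p = 0.026), the only member called in either class, beside 1.11% and 1.09% of all genes called lower. In HSC-like cells it had 34 CPM in Control and 15.3 and 23.8 CPM in Ezh2 KO, and 0 members passed there by edgeR and DESeq2 (3 and 1 at an unadjusted p under 0.05, 1.69% of all genes). Megakaryocyte-primed, myeloid-primed and basophil or mast cells also gave 0 by both. The median change of the members was -0.06, -0.08 and -0.21 in these, -0.15 in cycling, 0.01 in HSC-like and 0.25 in lymphoid-primed cells. Jarid2 KO against Control gave 0 called members in every tested transplant class by edgeR and DESeq2. In HSC-like cells 3 of 34 members were above 0 by edgeR, beside 51.3% of all genes, with a median of -0.30. An unadjusted p under 0.05 was reached there by 10 members with edgeR and 3 with DESeq2. The medians of the other classes ran from -0.24 to -0.09. Between the transplant knockouts, lymphoid-primed cells had 10 members lower and 1 higher in Jarid2 KO (3.87% and 2.32% of all genes), HSC-like cells 5 lower (2.36%) and myeloid-primed cells 1 higher, Irgm1 (1.75%). DESeq2 called fewer, with 4 lower and none higher in lymphoid-primed cells and 1 lower in HSC-like cells, and again 1 higher in myeloid-primed cells. Cycling, megakaryocyte-primed and basophil or mast cells gave 0 called members by edgeR and DESeq2. By edgeR 11, 9 and 4 members there had an unadjusted p under 0.05, and 14 of 32, 14 of 32 and 11 of 24 were above 0. In HSC-like cells Rsad2 had 21.5 and 22.2 CPM in Ezh2 KO and 11.3 and 12.6 CPM in Jarid2 KO (-0.88, SE 0.13, adjusted p = 0.0071), with the Control at 22.1 CPM.

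Counted per cell after thinning to 5000 UMIs, a baseline Control cell held on average 4.72 and 4.91 UMIs of all members together in the 2 libraries, an Ezh2 KO cell 5.24 and 5.54, and a Jarid2 KO cell 4.52 and 4.61. Cells with at least 10 member UMIs were 7.24% and 8.09% of Control cells, 11.1% and 12.4% of Ezh2 KO cells and 6.76% and 6.95% of Jarid2 KO cells. Cells with none were 3.12% and 3.55%, 3.57% and 2.97%, and 3.86% and 5.05%. Both Ezh2 KO libraries lay above the other 4 in the share of cells with many member UMIs, and their shares of cells with none overlapped those of Control. In the transplant the mean was 3.98 for Control, 4.25 and 4.28 for Ezh2 KO and 3.52 and 3.90 for Jarid2 KO, and cells with at least 10 were 4.79%, 6.42% and 6.24%, and 2.87% and 4.62%. Thinning left out the 273 to 721 cells per library that held fewer UMIs. No test was run over cells, since cells of a library are not replicates.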

How the data were processed

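The members and gene lists were chosen with earlier results of these data known. The deposited gene by barcode matrices held whole-number counts of unique molecular identifiers (UMIs), which the authors had made with Cell Ranger 7.2.0 (baseline) or 6.1.2 (transplant), per the file headers. The submitters' processing notes list Cell Ranger 3.1.0, Partek, Seurat 3.0 and the mouse build mm10. Barcodes with at least 1000 UMIs, at least 500 genes and at most 10% mitochondrial UMIs were kept. The cells with the highest doublet scores were then removed, up to a preset rate of 0.8% per 1000 barcodes. Raw counts were summed per library. Sums were tested with edgeR 4.0.16 (quasi-likelihood, TMM scaling, filter on low counts, Benjamini-Hochberg adjustment over all genes tested, threshold 0.05) in R 4.3.3. The baseline fit held genotype and sex. The transplant fit held genotype, and its single Control library was assumed to vary like the knockouts. All 34 members passed the filter in both fits. Standard errors were the log2 change divided by the root of the F statistic. Gate sums were fitted with the library as a block. Control cells of each experiment were clustered in scanpy 1.11.5 without the members or the pathway lists (2000 variable genes, 30 components, Leiden resolution 1). Clusters were named from marker lists. Each knockout cell took the most common cluster among its 15 nearest Control cells. Named members were those past the threshold, up to 10 per comparison by size among members of at least 10 CPM, or the 5 with the highest level where fewer than 3 passed. Called members under 10 CPM are also given, and fall outside that rule. Alternatives were DESeq2 1.42.0, other scaling, count, cell and doublet filters, cell mixes, sex handling, gates, clustering and leaving out each library. The script was tested on simulated counts. No source says whether libraries pooled animals, so p-values measure only the spread between libraries. Same-numbered transplant knockouts did not deviate together (Pearson r = -0.17 over 15171 genes). Baseline libraries of the same sex did (r from 0.26 to 0.37), and sex is a term of the baseline fit. CUT&Tag libraries of the series (6 samples) are not used here.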

Additional observations from a re-analysis of the deposited data

Results flagged for a closer look

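The change of Oasl2 in Ezh2 KO against Control differed between the transplant and the baseline experiment by -1.20 on the log2 scale (SE 0.19, edgeR adjusted p = 0.046), with a decrease in the transplant and overlapping groups at baseline. In the transplant both Ezh2 KO libraries lay below the Control. The transplant change of Oasl2 was -1.26 over all kept cells and -1.37 among cells called male. Ezh2 transcripts changed by -0.33 (SE 0.06) in baseline Ezh2 KO, which did not pass, and by -2.19 (SE 0.13) in the transplant. The difference between these Ezh2 changes was -1.86 (SE 0.14). The single Control library, the sex mix of the libraries and the share of barcodes over the mitochondrial limit also differ between the experiments. The part of any of these in the Oasl2 difference was not tested beyond the alternatives given for it. The Oasl2 difference was not called when transplant cells were limited to male cells, with the strict cell filter, or when any 1 of 9 libraries was left out. It was kept without the female baseline Control.

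Inside the surface gates, the Jarid2 KO against Ezh2 KO change differed between MPP2 and HSC by -1.44 for Ifi44 (adjusted p = 0.025) and by -1.02 for Rtp4 (adjusted p = 0.011). Both genes were lower in Jarid2 KO in MPP2 and not called in HSC. Within MPP2, Dntt had 417 and 153 CPM in Ezh2 KO and 89.4 and 48.7 CPM in Jarid2 KO. Pf4 had 84.6 and 187 CPM against 402 and 363 CPM. The part of such cell contents in these differences was not tested.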

How the results depend on the processing

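Of 1964 values of single members under an alternative, 1702 kept their direction and side of the threshold, 262 lost the call and 0 reversed. That total includes members not called in the main fit, which had no call to lose, so it understates how often calls were lost. Some counts of called members that moved are given next, and the causes were not tested unless the alternative itself sets them. DESeq2 gave 10 higher for baseline Ezh2 KO against Control and 13 lower for baseline Jarid2 KO against Ezh2 KO. In the transplant it gave 3 higher and 1 lower, and 1 higher and 13 lower. HSC against MPP2 gave 25 higher and against MPP4 8 higher. For baseline Ezh2 KO against Control (7), a mean of at least 10 CPM, only the 2 groups compared, and leaving out the dendritic, basophil, T, NK, innate lymphoid and B-lineage classes each gave 4, no sex term gave 0, and leaving out 1 library gave 1 to 5. For baseline Jarid2 KO against Ezh2 KO (10), at least 10 CPM gave 6, no sex term 1, and leaving out 1 library 0 to 11. Female against male (1) gave 8 by DESeq2, 3 without the low-count filter and 0 to 2 without 1 library. Transplant Jarid2 KO against Control (0) gave 1 without the low-count filter and 0 to 1 without 1 library. Transplant Ezh2 KO against Control (3) gave 5 without the low-count filter, 0 at 10 CPM or more, where none of the 3 is tested, 1 with the strict cell filter, 1 with male cells and 1 to 6 without 1 library. Transplant Jarid2 KO against Ezh2 KO (13) gave 2 at 10 CPM or more, 5 with the strict cell filter, 8 with male cells and 8 to 14 without 1 library.

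The interaction for Ezh2 KO against Control (1) gave 0 with the strict cell filter, 0 with male cells and 0 to 1 without 1 library. That for Jarid2 KO against Ezh2 KO (0) gave 1 by DESeq2, with RLE size factors, without the low-count filter, with doublets kept, with no cell filter, without the other classes and with male cells, 3 when sex was added as a term at baseline, and 0 to 1 without 1 library. Within transcript classes, baseline Jarid2 KO against Control gave 0 by DESeq2, Ezh2 KO against Control 3 at baseline and 3 in the transplant with finer clustering, and transplant Jarid2 KO against Ezh2 KO 5 by DESeq2. Without 1 library, counts within gates were 0 to 3 for Jarid2 KO against Control and 5 to 15 for Ezh2 KO against Control, and the gate by genotype count (2) was 0 to 2. The ratio of member UMIs per cell, Ezh2 KO to Control, was 1.19 without thinning and 1.12 with it.

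In the transplant, the fit with the replicate block gave 13 members for Jarid2 KO against Ezh2 KO (1 higher, 12 lower), and the crossed pairing, added after seeing the data, gave 15. Same-numbered deviations had a correlation of -0.17, and nothing in the labels pairs these libraries. At baseline the replicate number is the sex, which the fit holds as a term. Members with means under 10 CPM rest on few UMIs per library, as few as 19.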
